A study of Mus musculus with 10 samples.

Results

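Kinesin and dynein motors, their light and accessory chains, the dynactin complex and the BicD adaptors were followed in regulatory T cells with and without Helios. This gene set was chosen with earlier results of these data known. Its members were all rows whose symbol starts with Kif followed by a digit or c, Klc, Dync, Dynl, Dnah, Dnahc, Dctn or Bicd. This gave 65 of 13252 genes, and 52 of them passed the filter for testing, a mean of at least 10 normalized counts over all libraries. They comprised 12 kinesins of cell division, 21 other kinesins, 4 kinesin light chains, 13 cytoplasmic dynein genes, 6 dynactin genes, 2 BicD adaptors and 7 axonemal dynein heavy chains.

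The samples were mouse Treg cells, the regulatory T cells that restrain immune responses, sorted on reporter signals and profiled by RNA-seq of total RNA. Each group had 5 libraries: CD4+RFP+GFP+ cells carry the label Helios+, and CD4+RFP+GFP− cells the label Helios−. The labels do not say what RFP reports, nor the strain, age or organ, and the series' design text speaks of wildtype and knockout cells instead, so the sort labels of the single samples were used here. Nothing in the labels says that the 5 libraries of a group came from separate mice. A p-value here thus sets the group difference only against the scatter between these libraries. That scatter may be technical and may not include variation between mice.

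Recovered reads ranged from 4872348 to 6948692 per library, and the motor genes took 0.395% to 0.558% of them. The ribosomal RNA precursor Rn45s took 8.54% to 18.6%. Ikzf2, the gene of Helios, stood at 487 ± 56.5 normalized counts in the Helios− and 10367 ± 456 in the Helios+ group (SD, n = 5), and every library labelled Helios+ lay above every library labelled Helios−. Foxp3, the factor that defines Treg cells, had 3526 ± 226 and 3570 ± 201, and Cd4 had 3334 ± 446 and 3208 ± 276. Neither of these was called (limma adjusted p 0.879 and 0.742). Of 6 markers of T and Treg cells, 2 were higher, Il2ra and Ctla4, and 0 lower (33.3% called, against 24.8% of all tested genes). In the blocked fit Cd3e was the third called higher (limma adjusted p 0.00773), where 18.9% of all tested genes were higher.

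Kinesins walk along microtubules mostly towards the plus end at the cell's edge, and cytoplasmic dynein walks towards the minus end at the centrosome. A group of kinesins builds and pulls apart the mitotic spindle, while the others carry vesicles, organelles and RNA. Dynein needs dynactin and a coiled-coil adaptor such as BicD to move cargo over long distances. Axonemal dynein heavy chains drive the beat of cilia and sperm tails, which lymphocytes do not have. In T cells, dynein and kinesins are known for placing the centrosome, granules and mitochondria at the contact with an antigen-presenting cell.

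Of the 52 tested genes, 25 differed between the groups at a limma adjusted p under 0.05, a share of 48.1%, against 24.8% of the 10718 genes tested in all. Higher in Helios+ cells were 19 motor genes, where 14.1% of all tested genes were higher, and lower were 6, where 10.7% of all tested genes were lower. The median log2 change of the motor genes was 0.11, and that of all genes was −0.02. Without the kinesins of cell division, 11 genes were higher and 6 lower among 41, and the median was 0.01. The 5 Helios+ values did not overlap the 5 Helios− values in 21 of the 52 genes, against 19.5% of all tested genes. These were 15 higher genes, against 11.2% of all, and 6 lower genes, against 8.37%. In the fit that takes the replicate number as a block, 31 motor genes were called, against 37.3% of all tested genes, 23 of them higher (18.9% of all) and 8 lower (18.5% of all). The called division kinesins were all higher, and the called transport motors went both ways.

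**Figure D1:**
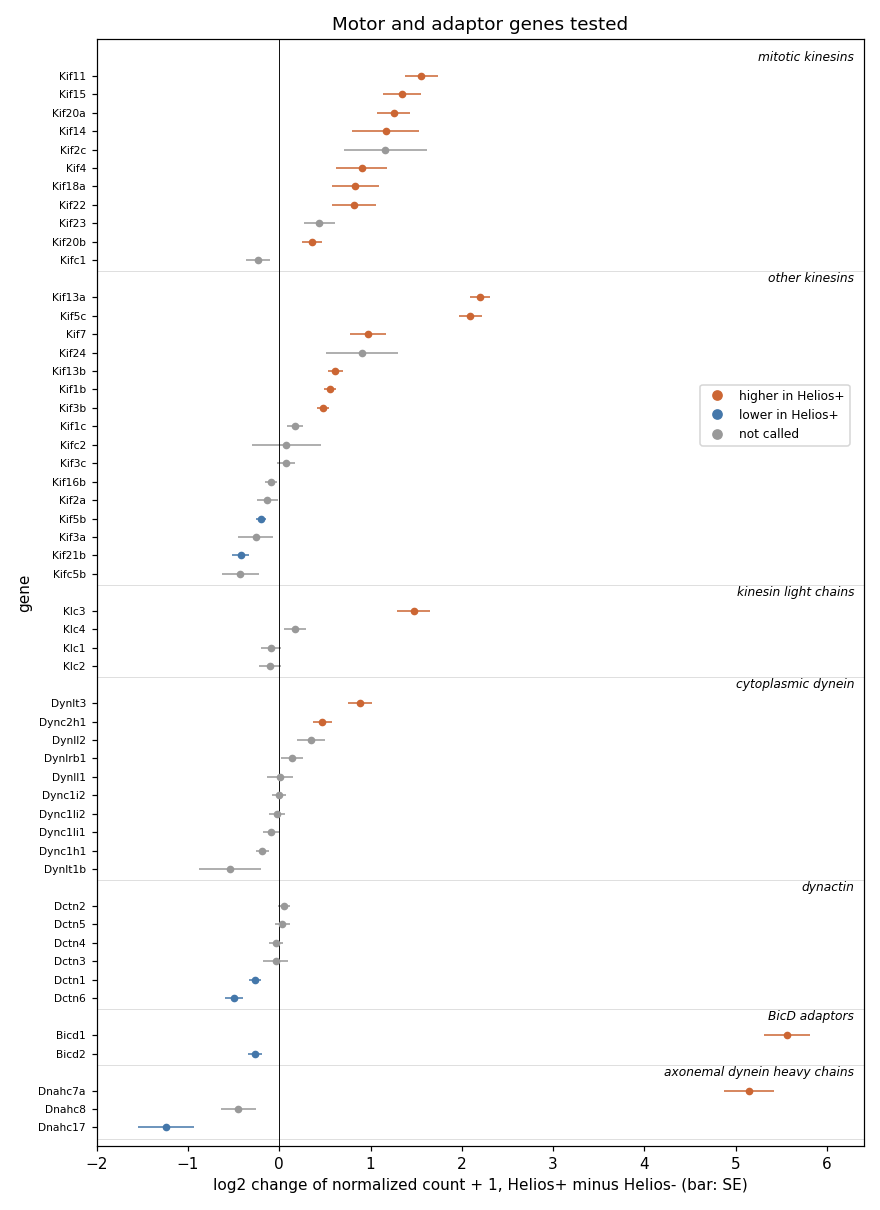
Log2 change (Helios+ minus Helios−, log2 of normalized count + 1) of the 52 tested motor genes, sorted within each class, with the standard error as a bar. Orange points passed limma's adjusted p of 0.05 upward, blue points downward, and grey points did not pass; Bicd1 at 5.56 and Dnahc7a at 5.15 stand furthest to the right and Dnahc17 at −1.24 furthest to the left.

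The kinesins of cell division were higher in Helios+ cells where they passed the test. Of 11 tested, 8 were called higher and 0 lower, the median log2 change was 0.90, and 10 of 11 changes were above 0. The called share was 72.7%, against 24.8% of all tested genes. The count of 8 was 4 without Helios+ replicate 1, 4 without Helios+ replicate 4, 5 without Helios+ replicate 5, and 4 under quantile normalization. Their summed level was 479 ± 58.7 normalized counts in Helios− libraries (SD, n = 5), from 403 to 562, and 724 ± 51.4 in Helios+ libraries, from 655 to 778. Levels stayed low: their level per kilobase of transcript, summed over the 12 genes, was 128 ± 16.0 in Helios− and 181 ± 13.8 in Helios+ cells, against 1748 ± 125 and 1653 ± 59.2 for the other kinesins. In bulk samples, fewer cells of a type and less RNA per cell cannot be told apart.

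Kif11 encodes the bipolar motor Eg5 that pushes spindle poles apart (chromosome 19, 37376403 to 37421859, plus strand). Its 5 Helios− libraries held 34.0, 20.1, 26.2, 37.6 and 31.1 normalized counts and its Helios+ libraries 95.4, 74.4, 76.1, 92.3 and 104. The lowest Helios+ library lay far above the highest Helios− library, so the groups did not overlap. The means were 29.8 ± 6.84 and 88.5 ± 12.9 (SD, n = 5), which is 1.56 ± 0.18 (SE) on the log2 scale, at a limma adjusted p of 8.66e-06.

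Kif15, which works beside Kif11 in keeping the spindle bipolar (chromosome 9, 122951046 to 123018733, plus strand), held 43.3, 18.0, 21.8, 34.2 and 34.1 in Helios− and 84.9, 72.8, 65.8, 70.9 and 81.1 in Helios+ libraries. The lowest Helios+ value lay above the highest Helios− value. Its log2 change was 1.34 ± 0.21 (limma adjusted p 0.000204). Kif20a, a motor of the central spindle and cytokinesis, held 23.4, 15.9, 21.8, 15.4 and 20.4 against 41.9, 46.0, 53.8, 46.6 and 47.5. These groups were also apart, and the gene rose by 1.25 ± 0.18 on the log2 scale (limma adjusted p 7.87e-05). Cdc23 on the other strand shares 29.3% of its exon bases, and the strand setting of the counting is not given in the sources used here.

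Kif20b, another cytokinesis motor, had the smallest change of the called genes of this class. It held 214, 201, 141, 193 and 200.5 in Helios− and 237, 256, 226, 249.7 and 242 in Helios+ libraries, with a gap between the groups and a log2 change of 0.36 ± 0.11 (limma adjusted p 0.0216). The low value among the Helios− libraries was replicate 3. This call ended without Helios+ replicate 2 or replicate 4 (limma adjusted p 0.0542 and 0.0509).

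The other 4 called division kinesins had overlapping groups. Kif14, a midbody motor, rose by a log2 change of 1.17 ± 0.37, from 10.03 ± 4.99 to 23.1 ± 8.70 normalized counts (limma adjusted p 0.0293). Kif4, the chromosome-bound motor that shapes the midzone, rose by 0.90 ± 0.28 (limma adjusted p 0.026), Kif18a, which dampens chromosome oscillation, by 0.84 ± 0.26 (limma adjusted p 0.0266), and Kif22, which pushes chromosome arms from the poles, by 0.82 ± 0.24 (limma adjusted p 0.0217). All 4 lost the call under quantile normalization, with limma adjusted p from 0.0819 to 0.141. Kif14 also lost it without any of 6 libraries (Helios− replicates 2, 3 and 4, Helios+ replicates 1, 4 and 5; adjusted p 0.0533 to 0.0819), and Kif18a without any of 6 (Helios− replicates 1, 4 and 5, Helios+ replicates 1, 2 and 4; 0.0501 to 0.0721). Kif4 lost it without Helios− replicate 5 or any of Helios+ replicates 1, 3, 4 and 5 (0.0510 to 0.0725), and Kif22 without Helios− replicate 2 or Helios+ replicates 1 or 5 (0.0517 to 0.0653). Pdzd11 shares 15.1% of the exon bases of Kif4.

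Kif23, the central spindle motor of cytokinesis, had 34.2 ± 5.35 and 46.8 ± 7.37 normalized counts and was not called (limma adjusted p 0.0677, and 0.0379 without Helios− replicate 2). Its log2 change was 0.44, and 0.26 under quantile normalization (limma adjusted p 0.287). Kif2c, which takes microtubules apart at the centromere, had 6.55 ± 3.56 and 14.7 ± 6.56 (limma adjusted p 0.0787, and 0.0153 in the fit with the replicate number as a block). It was also called with DESeq2 (adjusted p 0.0441) and without Helios− replicate 1 (limma adjusted p 0.0447). Its log2 change of 1.16 was 0.75 without Helios− replicate 3 (limma adjusted p 0.138) and 0.57 under quantile normalization (limma adjusted p 0.328). Kifc1, the minus-end motor that gathers spindle poles, had the only change below 0, at −0.23 ± 0.13 (limma adjusted p 0.233, and −0.15 without Helios− replicate 1), and 39.7% of its words of 50 bases also occur in other genes, Kifc5b among them. At the filter, Kif2c lay just inside with a mean of 10.6 normalized counts and Kif18b just outside with 8.52. Kif18b had 31 reads in the Helios− and 52 in the Helios+ group.

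**Figure D2:**
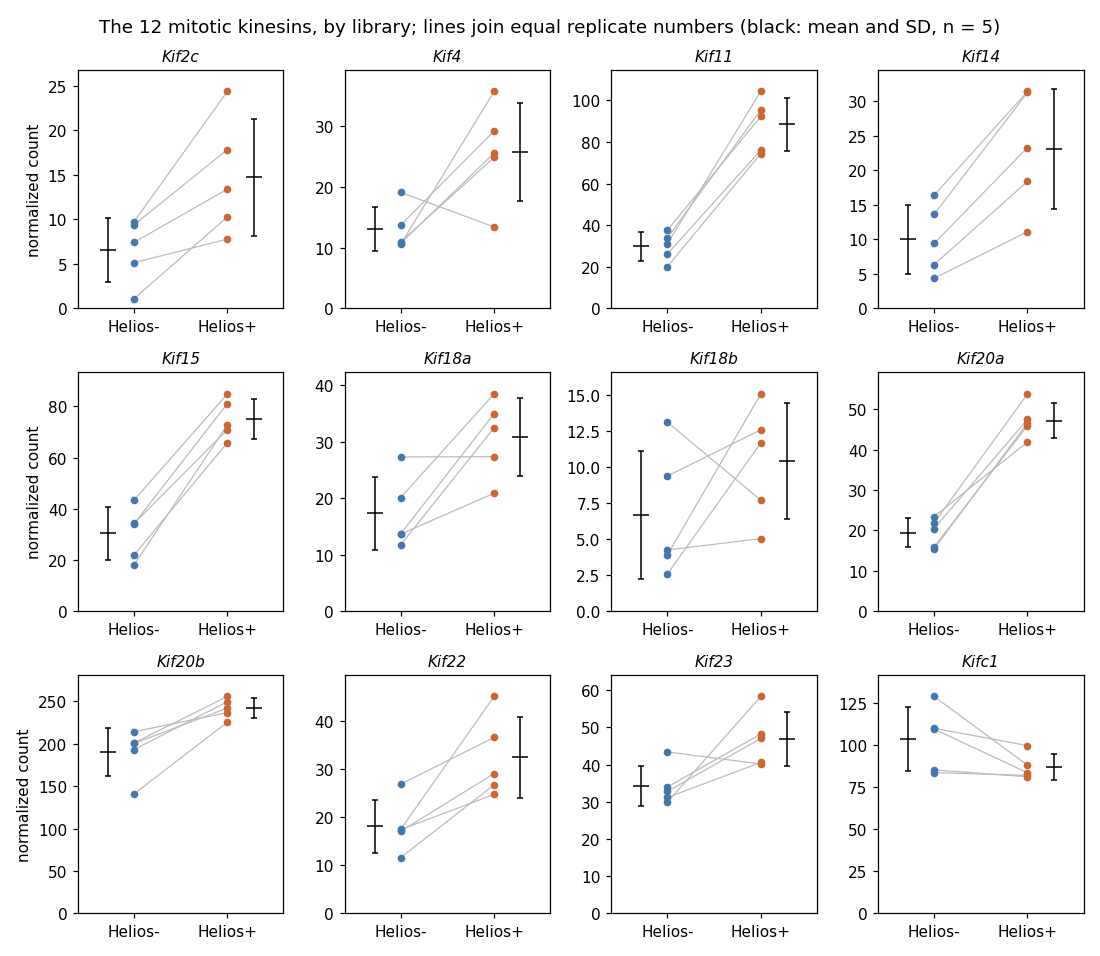
Normalized counts of the 12 division kinesins, with a point per library, grey lines joining the Helios− and Helios+ library of the same replicate number, and black bars for the mean and SD (n = 5). Kif11, Kif15, Kif20a and Kif20b separate the groups fully, the other panels overlap, and Kifc1 has a lower mean in Helios+ cells (86.9 against 103).

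Other genes of cell division were also higher where they passed the test. In a list of 20 proliferation genes without kinesins, 18 were tested, 11 were higher and 0 lower, with a median log2 change of 0.70. The called share was 61.1%, against 24.8% of all tested genes. With the block 13 were higher, Ccnb2 and Birc5 being added (limma adjusted p 0.0191 and 0.0454), where 18.9% of all tested genes were higher. The summed level of that list was 1185 to 1701 in Helios− and 2182 to 2809 in Helios+ libraries. Top2a, a topoisomerase that untangles replicated DNA, had 182 ± 20.6 and 407 ± 55.6 normalized counts (limma adjusted p 9.95e-07). Nusap1, a spindle protein, had 11.1 ± 4.07 and 44.1 ± 15.4 (limma adjusted p 0.000138). The part of a difference in cycling cells in the kinesin values was not tested.

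Promoters of the division kinesins are shown because all called genes of the class were higher and cell cycle genes are known for shared promoter elements. RefSeq promoter sequences (GRCm38.p6, from 250 bases before to 50 bases after the start of a transcript, 300 in all) were matched for 49 of the 65 genes, with 55 promoters, and for 11 of the 12 division kinesins, all but Kif20a. The cell cycle homology region (CHR, searched as TTTGAA and, for the other strand, TTCAAA) is a binding element of the MuvB complexes that repress and activate cell cycle genes. The CCAAT box (CCAAT and ATTGG) is bound by NF-Y. TGGGAA (and TTCCCA), which holds the core bound by Ikaros family proteins, was searched as well. Both strands were searched, matches of different motifs may overlap by a few bases, and a match describes letters and not a bound site.

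Capitals mark CHR and CCAAT matches in the following promoters, each written 5′ to 3′ on the gene's strand. Kif11 (chr19:37376132-37376431, plus strand) has the largest change of the class, Kif4 (chrX:100625815-100626114, plus strand) and Kifc1 (chr17:33890584-33890883, minus strand) hold both elements near the start, and Kif20b (chr19:34922108-34922407, plus strand) holds 2 CHR matches in a row.
Kif11: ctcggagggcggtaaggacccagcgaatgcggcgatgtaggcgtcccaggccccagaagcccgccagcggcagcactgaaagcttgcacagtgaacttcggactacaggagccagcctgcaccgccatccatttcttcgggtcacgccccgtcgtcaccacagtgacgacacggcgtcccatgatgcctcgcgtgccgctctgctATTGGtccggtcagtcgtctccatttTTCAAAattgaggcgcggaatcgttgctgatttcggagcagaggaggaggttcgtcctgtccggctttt
Kif4: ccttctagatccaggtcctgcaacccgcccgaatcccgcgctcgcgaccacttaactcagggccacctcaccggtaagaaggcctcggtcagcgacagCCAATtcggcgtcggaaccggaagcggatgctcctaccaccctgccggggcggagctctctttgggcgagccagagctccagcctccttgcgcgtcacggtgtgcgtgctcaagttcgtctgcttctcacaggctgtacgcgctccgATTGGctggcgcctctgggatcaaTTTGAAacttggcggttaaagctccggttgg
Kifc1: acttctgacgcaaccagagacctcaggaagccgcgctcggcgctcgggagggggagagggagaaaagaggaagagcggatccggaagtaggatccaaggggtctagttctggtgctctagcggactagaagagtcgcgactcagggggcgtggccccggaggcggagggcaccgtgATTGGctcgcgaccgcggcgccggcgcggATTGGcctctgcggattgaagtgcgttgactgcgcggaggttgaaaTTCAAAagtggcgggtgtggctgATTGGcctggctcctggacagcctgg
Kif20b: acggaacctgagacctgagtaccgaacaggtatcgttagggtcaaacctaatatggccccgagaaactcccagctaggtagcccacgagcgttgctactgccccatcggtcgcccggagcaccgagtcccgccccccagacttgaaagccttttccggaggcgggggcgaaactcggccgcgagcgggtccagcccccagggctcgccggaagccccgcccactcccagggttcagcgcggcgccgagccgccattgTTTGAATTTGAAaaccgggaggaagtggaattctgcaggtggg

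In Kif11 the CHR match begins 19 bases and the CCAAT match 45 bases before the start. In Kif4 the CHR match begins at position 19 after the start, with one CCAAT match 5 bases before the start and another 152 bases before it. Kifc1, which was not called, holds the CHR match at position 1 and 3 CCAAT matches. Over the class, 10 of 11 promoters held a CHR match (90.9%), against 17.9% of all 32851 promoters. The windows of Kif14, Kif2c and Kif4 lay wholly inside the GENCODE gene, and each of them held a CHR match. Kif2c's window ended at 117179022, and the gene, on the minus strand, begins at 117182639. Over all motor genes, the window's end occurred in a transcript of the same gene for 26 of 30 plus and 18 of 25 minus strand promoters. CCAAT was held by 7 of 11 (63.6%) against 37.4%, and both by 7 of 11 against 6.95%. TGGGAA was held by 4 of 11 against 25.6%. Kif18a, which was called, was the promoter without a CHR match. Among the called division kinesins, 6 of 7 promoters held CHR (85.7%). The promoters of Kif2c, Kif23 and Kifc1, not called, and of Kif18b, not tested, held it as well.

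Among the other kinesins, 6 of 16 tested genes were higher and 2 lower, a called share of 50% against 24.8% of all tested genes. The median log2 change was 0.12. Groups did not overlap in 8 of the 16, against 19.5% of all tested genes. Kif13a and Kif5c led, both over 4-fold, while Kif21b and Kif5b, the most abundant kinesins per kilobase of transcript in both groups, were lower. Per kilobase, Kif21b had 809 in Helios− and 602 in Helios+ cells, Kif5b 350.3 in Helios− and 304 in Helios+, Kif2a 138 in Helios− and 124 in Helios+, and Kif1b 91.4 in Helios− and 135 in Helios+ cells.

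Kif13a is a kinesin-3 motor that moves recycling endosomes and the mannose-6-phosphate receptor (chromosome 13, 46749087 to 46929867, minus strand). Its Helios− libraries held 122, 84.7, 90.7, 94.9 and 112 normalized counts and its Helios+ libraries 441, 481, 407, 461 and 524. No Helios− library came near the lowest Helios+ library. Means were 101 ± 15.5 and 463 ± 43.8 (SD, n = 5), 4.59-fold higher in Helios+ cells, and the log2 change was 2.20 ± 0.11 (limma adjusted p 1.36e-09).

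Its paralogue Kif13b, a motor that binds the scaffold protein Dlg1, held 460.4, 437, 359, 431 and 377 in Helios− and 706, 619, 579, 629 and 618 in Helios+ libraries. The groups were apart, and the log2 change was 0.61 ± 0.08 (limma adjusted p 4.15e-05). As a share of the Kif13 level per kilobase, Kif13a made up 24.0% ± 2.99 in Helios− (SD, n = 5) and 48.6% ± 2.84 in Helios+ cells. The level of the pair was thus mostly Kif13b in Helios− and near equal in Helios+ cells.

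Kif5c, a heavy chain of conventional kinesin known from neurons (chromosome 2, 49619298 to 49774778, plus strand), held 37.5, 44.5, 31.7, 37.6 and 35.0 in Helios− and 145, 169, 149, 168 and 178 in Helios+ libraries. Each Helios+ value was more than 3 times each Helios− value. The difference in means was 4.34-fold, or 2.09 ± 0.12 on the log2 scale (limma adjusted p 7.72e-09). Its ubiquitous counterpart Kif5b went the other way, with 2137, 2126, 2134, 2109 and 2059 against 1789, 1913, 1807, 1879 and 1783. Those groups did not overlap, and the change was small, −0.20 ± 0.05 (limma adjusted p 0.0115), and lost under quantile normalization (limma adjusted p 0.0969). Kif5c made up 1.52% ± 0.186 of the Kif5 level per kilobase in Helios− and 7.19% ± 0.578 in Helios+ cells (SD, n = 5), and Kif5b still made up 92.7% ± 0.544 in Helios+ cells. Kif5a, the remaining heavy chain, had 18 and 13 reads in the groups. Of 5 neuron markers 2 were in the table, Tubb3 and Mapt, with a summed level of 0 to 6.35 normalized counts in Helios− and 1.67 to 2.56 in Helios+ libraries.

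**Figure D3:**
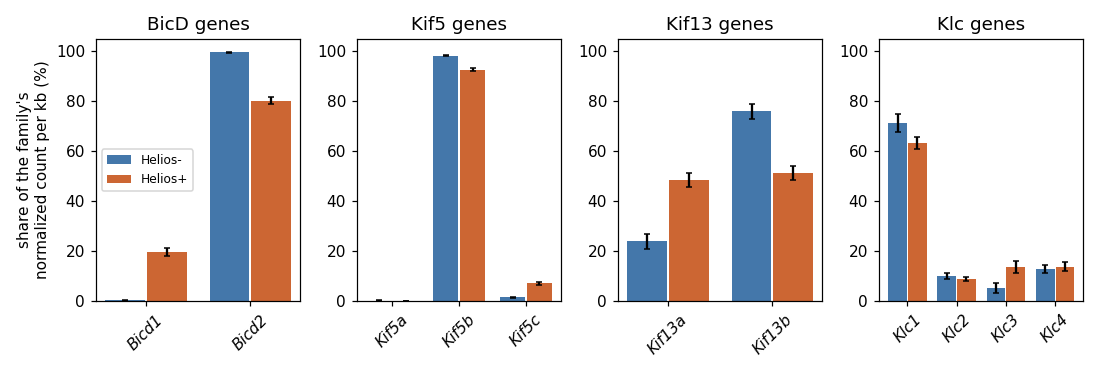
Share of each gene in the level per kilobase of its family (percent of normalized counts per kb of transcript), with bars for the mean of the 5 Helios− (blue) and 5 Helios+ (orange) libraries and the SD as error. Bicd1 goes from 0.326% to 19.7% of the BicD genes, Kif5c from 1.52% to 7.19% of the Kif5 genes, Kif13a from 24.0% to 48.6% of the Kif13 genes and Klc3 from 5.37% to 13.8% of the light chains.

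Kif21b, which limits microtubule growth in T cells and neurons (chromosome 1, 136131389 to 136177998, plus strand), had the highest level of all motor genes per kilobase. It held 8481, 7768, 6106, 7090.1 and 7434 normalized counts in Helios− and 5876, 5819, 4706, 5425 and 5595 in Helios+ libraries. All Helios+ values lay below all Helios− values, and the lowest library of each group was replicate 3. The mean was 1.34-fold lower in Helios+ cells, −0.42 ± 0.09 on the log2 scale (limma adjusted p 0.00283).

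The other higher kinesins were Kif1b, Kif3b and Kif7. Kif1b, a kinesin-3 that carries mitochondria and vesicles, held 979, 949, 856, 929 and 963 against 1267, 1299.7, 1364, 1503 and 1453, without overlap, a log2 change of 0.56 ± 0.07 (limma adjusted p 1.29e-05). Kif3b, a motor subunit of heterotrimeric kinesin-2, which drives intraflagellar transport outward and also carries vesicles, held 431, 411, 401, 427 and 415 against 564, 550.3, 605, 618 and 575. Its groups were narrow and apart, and the log2 change was 0.48 ± 0.06 (limma adjusted p 2.82e-05). Its partner subunit Kif3a was not called, at 60.8 ± 11.7 and 51.3 ± 12.7 (limma adjusted p 0.374). Nor was the related subunit Kif3c, at 143 ± 13.4 and 150.1 ± 12.4 (limma adjusted p 0.664). Genes on the other strand, 1110002L01Rik and Gm48512, share 40.7% of the exon bases of Kif3c. Kifap3, the accessory protein of kinesin-2, was higher, at 49.1 ± 11.04 and 78.5 ± 13.7 (limma adjusted p 0.0128). Kif7, a kinesin of Hedgehog signalling at the cilium tip, held 18.7, 25.4, 18.6, 28.2 and 20.4 against 39.8, 36.8, 41.9, 42.7 and 62.6, without overlap, and Helios+ replicate 5 stood above the rest. It rose by 0.97 ± 0.20 on the log2 scale (limma adjusted p 0.00178), and genes on the other strand, Ticrr among them, share 20.3% of its exon bases.

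Of the kinesins not called, Kif2a, which takes microtubules apart at their ends, had 729 ± 147 and 658 ± 59.7 normalized counts, and Kif16b, an endosome motor, 508 ± 19.4 and 478 ± 32.5 (limma adjusted p 0.476 and 0.377). Dimt1 on the other strand shares 19.2% of the exon bases of Kif2a. Kif24, a centriole kinesin, and Kif1c, a vesicle motor, passed when the replicate number was a block (limma adjusted p 0.0292 and 0.0432, against 0.108 and 0.174 without it), and Kif24 also without Helios− replicate 1 (limma adjusted p 0.0368). The log2 change of Kif24, 0.91, was 0.53 without Helios− replicate 3 (limma adjusted p 0.196) and 0.54 under quantile normalization (limma adjusted p 0.266). Kif26b, an atypical kinesin, was below the filter. It had 0 reads in the Helios− group and 17 in the Helios+ group, at least 5.34-fold higher when 3 reads over the Helios− group are taken as the floor. Without the filter it was called (limma adjusted p 0.00489).

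**Figure D4:**
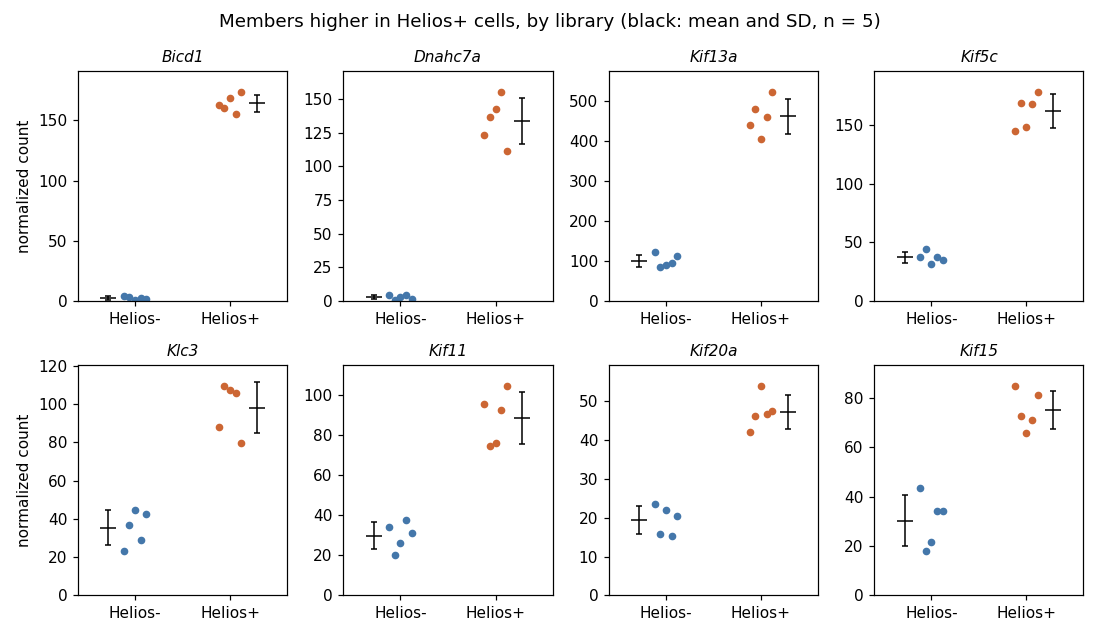
Normalized counts of 8 motor genes that were higher in Helios+ cells, with a point per library and black bars for the mean and SD (n = 5). In none of the 8 do the groups overlap; Bicd1 and Dnahc7a are below 5 normalized counts in every Helios− library and above 110 in every Helios+ library.

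Kinesin light chains link conventional kinesin to its cargo, and 1 of the 4 was called (25%, against 24.8% of all tested genes). Klc3, a light chain known from sperm (chromosome 7, 19394437 to 19404104, minus strand), held 23.4, 37.0, 44.8, 29.1 and 42.8 in Helios− and 88.0, 109.6, 108, 106 and 80.0 in Helios+ libraries. The groups did not overlap, the means were 35.4 ± 9.07 and 98.2 ± 13.4, and the log2 change was 1.47 ± 0.18 (limma adjusted p 1.85e-05). Ercc2 on the other strand shares 28.1% of its exon bases. Klc1, the main light chain per kilobase, had 645 ± 111 and 602 ± 59.6 (limma adjusted p 0.601), and Klc4 had 108 ± 11.99 and 122 ± 18.5 (limma adjusted p 0.32). The log2 change of Klc4 was 0.18, and 0.09 without Helios+ replicate 5. Klc3 made up 5.37% ± 1.88 of the light chain level per kilobase in Helios− and 13.8% ± 2.57 in Helios+ cells (SD, n = 5).

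Of 10 tested cytoplasmic dynein genes, 2 were higher and 0 lower, with a median log2 change of 0.00111. This called share of 20% was near the 24.8% of all tested genes. Dynlt3, a Tctex-type light chain (chromosome X, 9654267 to 9663003, minus strand), held 65.6, 84.7, 99.4, 79.5 and 85.6 in Helios− and 140.4, 159, 154, 130.2 and 185 in Helios+ libraries. Its groups were apart, 83.0 ± 12.2 against 154 ± 21.0, or 0.88 ± 0.13 on the log2 scale (limma adjusted p 9.35e-05). Dync2h1, the heavy chain of dynein-2, which carries intraflagellar transport back to the cell body (chromosome 9, 6928503 to 7184446, minus strand), held 257, 257, 190.0, 179 and 201 against 314, 300.3, 277, 318 and 282. No values overlapped, and the log2 change was 0.47 ± 0.11 (limma adjusted p 0.00422).

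The heavy chain of the main cytoplasmic dynein, Dync1h1, held 6696, 6453, 5801, 5967 and 5748 in Helios− and 5617, 5564, 5094, 5521 and 5129.8 in Helios+ libraries. All Helios+ values were lower, by a small margin, and the gene was not called (log2 change −0.19 ± 0.07, limma adjusted p 0.0623), but was with the replicate block (limma adjusted p 0.000994), with DESeq2 (adjusted p 0.0206) and without Helios− replicate 3 (limma adjusted p 0.0374). Under quantile normalization its log2 change was −0.02 (limma adjusted p 0.882). Dync1i2, an intermediate chain, had 805 ± 82.5 and 799 ± 28.7 (limma adjusted p 0.972). Dynll2, an LC8-type light chain, had 158 ± 38.2 and 197 ± 21.1 and was called with the block (limma adjusted p 0.0101, 0.113 without it) and without Helios− replicate 3 (limma adjusted p 0.0202). Without Helios− replicate 1 its log2 change of 0.35 became 0.20 (limma adjusted p 0.207). Dynlt1a, Dynlt1b and Dynlt1f share 63.0% to 88.6% of their words of 50 bases with other genes, so their counts are uncertain. Dynlt1b was not called (limma adjusted p 0.285), and Dynlt1a and Dynlt1f were below the filter and not tested.

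Dynactin binds dynein to cargo and microtubules, and 2 of its 6 genes were lower and 0 higher, with a median log2 change of −0.04. The called share was 33.3%, against 24.8% of all tested genes. Dctn1, the p150Glued subunit that grips the microtubule (chromosome 6, 83165920 to 83200117, plus strand), held 915, 1043, 1102, 988 and 977 in Helios− and 796, 892, 870.0, 839 and 782 in Helios+ libraries. Every Helios+ value lay below every Helios− value, and the log2 change was −0.26 ± 0.07 (limma adjusted p 0.00846). Dctn6, a subunit of the pointed end of the complex (chromosome 8, 34090420 to 34108796, minus strand), held 235, 219, 196, 245 and 247 against 184, 163, 139, 156 and 165. Its groups were apart too, 1.41-fold lower in Helios+ cells (−0.50 ± 0.10 on the log2 scale, limma adjusted p 0.00136), and a predicted gene shares 11.8% of its exon bases. Dctn2 had 288 ± 7.51 and 299.5 ± 11.97 and Dctn4 353 ± 32.2 and 343 ± 6.24, and neither was called (limma adjusted p 0.616 and 0.766). Summed over the complex, the level per kilobase was 892 ± 28.1 in Helios− and 803 ± 13.2 in Helios+ cells (SD, n = 5).

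The BicD adaptors, which join dynein and dynactin to Rab6 vesicles and other cargo, went in opposite directions. Bicd1 (chromosome 6, 149408886 to 149563329, plus strand) had the largest change of all motor genes. Its Helios− libraries held 4.69, 3.18, 1.09, 2.57 and 1.95 normalized counts, 13 reads in all, and its Helios+ libraries 162, 161, 168, 155 and 174, 854 reads in all. It was near 0 in each Helios− library and within a narrow range in the Helios+ libraries. Means were 2.69 ± 1.35 and 164 ± 7.13 (SD, n = 5), 60.9-fold higher, or 5.56 ± 0.25 on the log2 scale (limma adjusted p 7.12e-10). The nearest gene before it, 2810474O19Rik, lies 73.2 kb away and was not called, at −0.29 ± 0.14 on the log2 scale (limma adjusted p 0.155, and 4.08e-05 with the block).

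Bicd2 (chromosome 13, 49341585 to 49387026, plus strand) held 621, 485, 502, 532 and 493 in Helios− and 457, 450.0, 429, 446 and 404 in Helios+ libraries. All Helios+ values were lower, and the log2 change was −0.26 ± 0.08 (limma adjusted p 0.0203), a call that ended without Helios+ replicate 5 (limma adjusted p 0.0584). Bicd1 made up 0.326% ± 0.138 of the BicD level per kilobase in Helios− and 19.7% ± 1.42 in Helios+ cells (SD, n = 5), and Bicd2 was the main adaptor in both. The summed level of the pair per kilobase was 83.8 ± 8.91 in Helios− and 86.3 ± 2.73 in Helios+ cells.

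The promoters of Bicd1 (chr6:149408734-149409033, plus strand) and Kif13a (chr13:46929669-46929968, minus strand) are shown beside those of the division kinesins because both genes had large changes and neither window holds any of the 3 motifs, so no letters are in capitals.
Bicd1: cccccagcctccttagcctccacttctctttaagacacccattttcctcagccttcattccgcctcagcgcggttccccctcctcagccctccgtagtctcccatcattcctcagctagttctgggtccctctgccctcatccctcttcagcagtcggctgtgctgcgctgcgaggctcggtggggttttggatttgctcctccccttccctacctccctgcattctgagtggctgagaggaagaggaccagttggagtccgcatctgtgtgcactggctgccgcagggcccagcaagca
Kif13a: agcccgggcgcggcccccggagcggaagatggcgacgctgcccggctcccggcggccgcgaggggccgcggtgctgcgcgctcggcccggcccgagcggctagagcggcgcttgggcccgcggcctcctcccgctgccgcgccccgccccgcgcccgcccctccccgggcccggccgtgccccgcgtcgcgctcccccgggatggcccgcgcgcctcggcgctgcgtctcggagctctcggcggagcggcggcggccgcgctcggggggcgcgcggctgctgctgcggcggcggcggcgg

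Of 11 promoters of the other higher motor genes, from 10 genes, 0 held CHR, against 17.9% of all promoters. CCAAT was held by 5 (45.5%, against 37.4%). TGGGAA was held by 3, those of Kif5c, Kif7 and Kif3b, a share of 27.3% near the 25.6% of all promoters. Over all motor genes, called or not, 14 of 55 promoters held TGGGAA (25.5%).

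Axonemal dynein heavy chains were present at very unequal levels. Dnahc8, an outer arm heavy chain of sperm tails, made up 95.0% ± 1.13 of their level per kilobase in Helios− and 87.3% ± 2.28 in Helios+ cells (SD, n = 5). Of the 7 genes, 3 passed the filter, with 1 higher and 1 lower (66.7% called, against 24.8% of all tested genes). Dnahc7a, an inner arm heavy chain (chromosome 1, 53397006 to 53706784, minus strand), held 4.69, 1.06, 3.28, 4.28 and 1.95 in Helios− libraries and 124, 136, 143, 155 and 111 in Helios+ libraries. As with Bicd1, it was near 0 in one group and present in every library of the other. The difference in means was 43.9-fold and the log2 change 5.15 ± 0.27 (limma adjusted p 2.60e-09). Of its words of 50 bases, 38.6% also occur in Dnah7b and Dnah7c, so reads of these copies may be counted together or lost. Its neighbours had small changes: Asnsd1, 44.2 kb away, rose by 0.27 ± 0.07 (limma adjusted p 0.00728), and Stk17b, 48.2 kb away on the other side, had −0.06 ± 0.08 (limma adjusted p 0.611).

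Dnahc17, a heavy chain of the outer arms (chromosome 11, 118021723 to 118130634, minus strand), held 145, 85.7, 40.4, 94.1 and 66.2 in Helios− and 48.2, 40.1, 27.3, 37.9 and 19.7 in Helios+ libraries. The groups overlapped, and the Helios+ library was the lower one for each of the 5 replicate numbers. Its log2 change was −1.24 ± 0.31 (limma adjusted p 0.00827). Dnahc8 itself held 3508, 2431, 1631, 2031 and 1923 against 2078, 1781, 1278, 1616 and 1506. It was again lower in Helios+ in 5 of 5 pairs with wide, overlapping groups, and was not called (log2 change −0.45 ± 0.19, limma adjusted p 0.108), but was with the block (limma adjusted p 8.56e-07) and with DESeq2 (adjusted p 0.0429). Without Helios− replicate 1, its highest library, the log2 change was −0.28 (limma adjusted p 0.174). Dnahc10, below the filter, had 52 reads in the Helios− and 5 in the Helios+ group, with no overlap of the normalized counts, and was called without the filter (limma adjusted p 0.000327). Dnahc1, Dnahc2 and Dnahc11 had 8, 9 and 26 reads in the Helios− and 7, 3 and 53 in the Helios+ group.

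**Figure D5:**
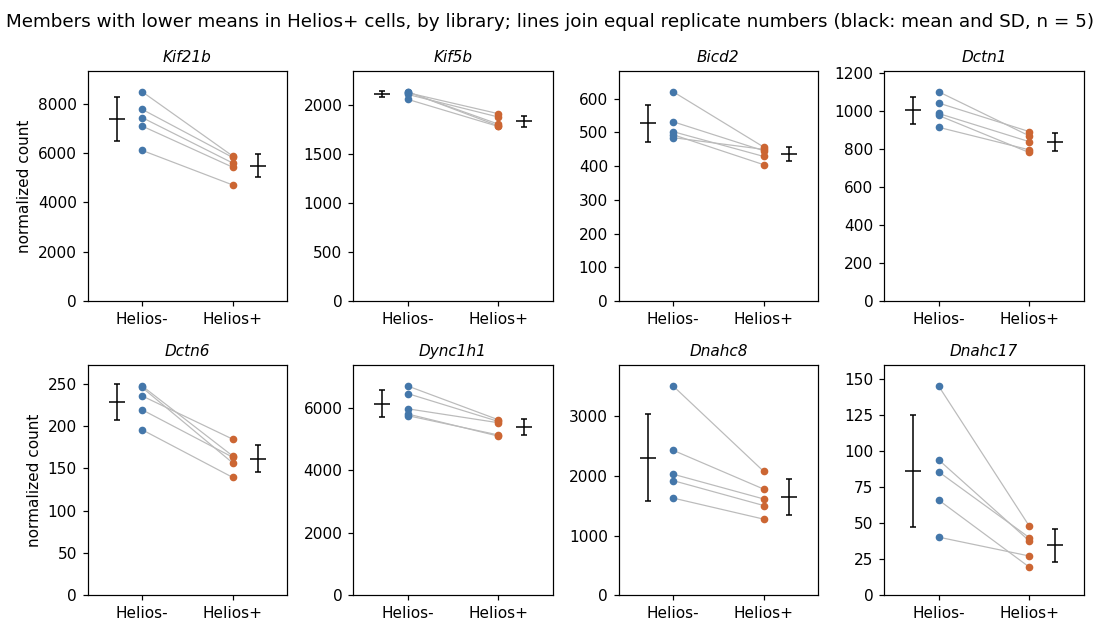
Normalized counts of 8 motor genes with a lower mean in Helios+ cells, with a point per library, grey lines joining equal replicate numbers and black bars for the mean and SD (n = 5). Kif21b, Kif5b, Bicd2, Dctn1, Dctn6 and Dync1h1 do not overlap between groups, while Dnahc8 and Dnahc17 overlap but fall along each of the 5 lines; Dync1h1 and Dnahc8 did not pass limma's test without the block.

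Of 20 markers of ciliated cells, 6 were in the table and 1 was tested, Wdr78, with 104 ± 22.0 and 93.3 ± 16.9 normalized counts (SD, n = 5), which was not called (log2 change −0.16, limma adjusted p 0.527). The other 5 summed to 5.29 to 18.7 normalized counts in Helios− and 15.9 to 35.6 in Helios+ libraries. Among them Rsph1 had 1 and 26 reads and Ccdc40 22 and 66. The part of such cells in the values of Dnahc7a was not tested.

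Markers of other blood cells were seen in both groups. B cell markers summed to 1362 to 1929 normalized counts in Helios− and 1227 to 1761 in Helios+ libraries. By limma 0 of 5 were called, against 24.8% of all tested genes. With the block 2 were lower, where 18.5% of all tested genes were lower. Macrophage and monocyte markers summed to 201 to 340 and 270.1 to 529, with 1 of 5 tested called higher, Csf1r (36.9 ± 5.84 and 61.6 ± 7.30, limma adjusted p 0.00251). With the block Lyz2 was higher too (142 ± 32.8 and 188 ± 75.9, limma adjusted p 0.0175), in 5 of 5 pairs. Its Helios+ libraries ran from 143 to 322. Cd68 (31.2 ± 13.2 and 25.3 ± 12.3) and Itgam (52.1 ± 18.2 and 48.5 ± 7.61) had lower Helios+ means, and Emr1 (8.33 ± 3.89 and 12.4 ± 7.73) a higher one. None of these was called. Cd14 was below the filter, with 8 and 7 reads. The called share of this list was 20%, against 24.8% of all tested genes. CD8 T cell markers summed to 347 to 413 and 311 to 377 and NK cell markers to 48.7 to 66.6 and 46.4 to 68.0, none called without the block and Cd8b1 lower with it (limma adjusted p 0.0111). Of all tested genes, 24.8% were called without the block, and with it 18.9% were higher and 18.5% lower. The part of these cells in the motor gene values was not tested.

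Partners of the motors outside the symbol rule were mixed. Of 36 listed cargo adaptors and regulators, 27 were tested, 5 were higher and 6 lower, and the median log2 change was 0.01. With the block 7 were higher and 11 lower, where 18.9% of all tested genes were higher and 18.5% lower. Without the block the called share was 40.7%, against 24.8% of all tested genes. Lower were Ccdc64, a BicD-related dynein adaptor (600.0 ± 55.2 to 393 ± 21.7, limma adjusted p 2.06e-05), Pafah1b1, the dynein regulator Lis1 (1143 ± 50.1 to 932 ± 35.6, limma adjusted p 0.00149), Jakmip1, Nin, Trak2 and Rhot1. Trak2 and Rhot1 join motors to mitochondria, and Nin anchors microtubules and dynein at the centrosome. Higher were Mapk8ip1, a kinesin-1 cargo scaffold (1.98 ± 2.85 to 20.6 ± 4.92, limma adjusted p 0.000139), Wdr60, an intermediate chain of dynein-2 (17.9 ± 5.82 to 36.6 ± 2.37, limma adjusted p 0.00312), Kifap3, Nde1 and Hook1. Of further dynein-2 genes below the filter, Wdr34 had 8 and 44 reads, Dync2li1 17 and 27, and Tctex1d2 9 and 15.

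Among the tracks the motors run on, 12 of 15 tubulin genes were tested, with a median log2 change of −0.11, 0 higher and 2 lower, Tubb2a (81.3 ± 30.4 to 36.8 ± 10.3, limma adjusted p 0.00873) and Tubd1 (46.1 ± 8.94 to 29.6 ± 8.001, limma adjusted p 0.032). Called tubulins made up 16.7% of those tested, against 24.8% of all tested genes. With the block, 4 tubulins were lower, where 18.5% of all tested genes were lower. Of 14 tested microtubule-associated proteins, 5 were higher and 2 lower, with a median log2 change of 0.12. This was a called share of 50%, against 24.8% of all tested genes. With the block Camsap1 was higher too (limma adjusted p 0.0294), where 18.9% of all tested genes were higher. Clip1, a tracker of growing plus ends, was lower, at 1711 ± 103 and 945 ± 69.5 (limma adjusted p 1.76e-07), and Mapre2, an end-binding protein of the same tips, was higher, at 212 ± 28.1 and 389.6 ± 21.5 (limma adjusted p 3.37e-06). Also higher were Mapre3, Clip2, Stmn1 and Dclk2, and Camsap2, which caps minus ends, was lower.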

How the data were processed

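A stranded SMARTer kit for very small inputs was used on total RNA of 5 Helios+ and 5 Helios− libraries, per the labels' protocols. The submitters' processing notes name mm10, HISAT2 2.0.4, HTSeq and DESeq2, without their roles, and with annotation, strand setting and filters not given in the sources used here. The authors deposited normalized counts, a signal per gene and library. All values (100%, tolerance 0.001) were whole multiples of 1 step per library, so whole reads were recovered, and same-group libraries differed by more than counting noise (chi-square per degree of freedom 3.26 to 45.4 over 20 pairs).

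The 10718 genes with a mean of at least 10 were tested with limma 3.58.1 in R 4.3.3 (trend, robust) on log2(normalized count + 1), group only, with Benjamini-Hochberg adjustment over all of them and a threshold of 0.05. This scale understates changes of low genes. The scripts were tested on simulated data. The comparison was repeated with edgeR 4.0.16 and DESeq2 1.42.0 on recovered reads, TMM and quantile scaling, other pseudocounts and filters, the replicate block, and without each library. Deviations of same-numbered libraries from their group means correlated at 0.48, 0.19, 0.39, 0.16 and 0.15, all above 0.1. Libraries of unlike number had a median of −0.03 but reached 0.117, also above 0.1. The numbers were taken as possible pairs, and the labels do not state a pairing. The main test leaves the numbers out, so its standard errors and adjusted p are unpaired. Blocked values stand beside results whose call they change.

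Levels per kilobase used the longest protein-coding transcript of GENCODE M21 (GRCm38, the assembly of mm10), which also gave positions and shared bases. All 65 symbols matched RefSeq, 7 as synonyms. The genes, lists and tests were chosen with earlier results of these data known. Named are all called motor genes, all division kinesins, the 2 most abundant uncalled genes per class, the genes at the filter, Ikzf2, Foxp3, Cd4, the neighbours of the 2 genes with the largest change and the 2 smallest p per list; other genes were named after their values were seen.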

Additional observations from a re-analysis of the deposited data

Results flagged for a closer look

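In 4 of 104 combinations of a motor gene and a group, 1 library stood apart from the other 4, by a gap to its nearest neighbour of more than 0.71 of the group's range. Chance gives about 1 in 20 such cases. Dctn3, a dynactin subunit, was highest in Helios− replicate 3, at 123 normalized counts against 76.1 to 84.3 (gap 0.826 of the range). Kif20b was lowest in the same library, at 141 against 193 to 214 (0.712). Kif7 was highest in Helios+ replicate 5, at 62.6 against 36.8 to 42.7 (0.769), and so was Klc4, at 155 against 112 to 118 (0.874).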

How the results depend on the processing

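Of the 25 calls, 18 held in all 19 alternatives in which they were tested, and no motor gene that was called changed direction. edgeR, TMM scaling and pseudocounts of 0.5 and 5 gave the same 25 calls, and so did dropping the filter among the 52 tested genes, where Kif26b and Dnahc10 were added. DESeq2 called 28 including all 25, quantile normalization 21 including 20 of the 25, and a minimum mean of 50 gave 19, all among the 25, with fewer genes tested. Without 1 library, 21 to 26 motor genes were called.

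The count of division kinesins called higher was 8. It was 3 at a minimum mean of 50, where fewer of them were tested, and 4 under quantile normalization. It ranged from 4 to 8 without 1 library: 4 without Helios+ replicate 1, 4 without Helios+ replicate 4 and 5 without Helios+ replicate 5. The cause was not tested. With the replicate number as a block, which takes same-numbered libraries as pairs, 4000 genes were called in all instead of 2655. Among motor genes 23 were then higher (18.9% of all genes) and 8 lower (18.5%), with all 25 calls held. Division kinesins called higher were then 9.

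Depth limits the low genes: 13 motor genes had a mean under 10, and without the filter 2 of them were called, Kif26b and Dnahc10. What change the others' depth could show was not measured.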
